A study of Mus musculus with 2 samples.

Results

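Joint surface and tendon fibroblast genes are described here in single cells of mouse bone. They are 10 listed genes, Prg4, Erg, Cilp, Cilp2, Angptl7, Thbs4, Tnmd, Scx, Fmod and Clu, and all 10 were found among the 21905 genes of the tables, whichever values they had. Resident cells from femurs and tibias were taken from female mice aged 12 weeks and profiled with droplet-based 3′ libraries, 1 from mice given vehicle (Veh) and 1 from mice given doxorubicin (Doxo), an anthracycline that damages DNA, at 10 mg/kg and 96 h before harvest. No transgene or deletion is given in the labels for either group, and neither the strain nor the number of mice behind a library is given in the sources used here. In both groups muscle and connective tissue were taken off the bones, the fragments were digested with collagenase, and cells with CD45, CD71, Ter119 or CD31 on their surface were depleted. Each library held 2488 cells, with a median of 8693 UMIs (unique molecular identifiers, 1 for each RNA molecule counted) per cell in Veh and 7347.5 in Doxo, and 4 cell barcodes occurred in both libraries. With 1 library per condition there was no replicate check: no test between conditions was made, cells were not taken as replicates, and all intervals are 95% intervals of counting error alone.

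The sliding surfaces of a joint are coated by cells of the superficial cartilage and of the synovial lining, which secrete lubricin, the product of Prg4. The cartilage cells also hold the transcription factor Erg, an ETS family member that is a standard gene of endothelium too. Tendons and ligaments insert into the same bone ends and are built by fibroblasts under the bHLH transcription factor scleraxis (Scx), which make tenomodulin (Tnmd), a membrane glycoprotein of mature tendon cells, thrombospondin 4 (Thbs4), a matrix protein that binds collagen, and fibromodulin (Fmod), a small leucine-rich proteoglycan that guides collagen fibrils. Cilp and its paralog Cilp2 encode cartilage intermediate layer proteins, Angptl7 a secreted angiopoietin-like protein, and Clu the secreted chaperone clusterin.

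Factors of the bHLH class such as Scx bind the E-box, CANNTG, and the promoters of the tendon genes Thbs4, Fmod and Tnmd and of Angptl7 are shown because these were 4 of the 5 members that were found in the same cells as Scx in both libraries. Each window runs from 250 bases before to 50 bases after a RefSeq start on GRCm38.p6, 5′ to 3′ on the strand of the gene, with each CANNTG in capitals. A search of 1 strand covers both, since the motif is its own reverse complement. The Thbs4 window is chr13:92794769-92795068 (minus strand), that of Fmod chr1:134037004-134037303 (plus), that of Tnmd chrX:133850758-133851057 (plus) and that of Angptl7 chr4:148500413-148500712 (minus).
Thbs4: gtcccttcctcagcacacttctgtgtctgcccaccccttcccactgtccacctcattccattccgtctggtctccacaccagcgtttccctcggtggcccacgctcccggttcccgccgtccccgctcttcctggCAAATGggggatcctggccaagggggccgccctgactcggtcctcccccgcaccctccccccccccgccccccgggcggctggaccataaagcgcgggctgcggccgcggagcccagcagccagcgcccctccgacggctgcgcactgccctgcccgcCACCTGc
Fmod: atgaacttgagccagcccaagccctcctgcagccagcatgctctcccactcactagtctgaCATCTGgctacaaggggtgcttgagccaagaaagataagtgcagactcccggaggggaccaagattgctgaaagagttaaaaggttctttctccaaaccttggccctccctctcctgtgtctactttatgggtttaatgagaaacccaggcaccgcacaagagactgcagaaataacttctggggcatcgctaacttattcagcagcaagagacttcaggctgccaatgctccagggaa
Tnmd: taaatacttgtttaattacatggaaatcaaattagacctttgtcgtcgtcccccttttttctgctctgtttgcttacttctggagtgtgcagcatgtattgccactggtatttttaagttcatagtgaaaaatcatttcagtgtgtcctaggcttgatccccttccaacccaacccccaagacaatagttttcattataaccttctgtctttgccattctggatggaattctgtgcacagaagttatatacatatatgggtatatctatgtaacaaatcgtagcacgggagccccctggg
Angptl7: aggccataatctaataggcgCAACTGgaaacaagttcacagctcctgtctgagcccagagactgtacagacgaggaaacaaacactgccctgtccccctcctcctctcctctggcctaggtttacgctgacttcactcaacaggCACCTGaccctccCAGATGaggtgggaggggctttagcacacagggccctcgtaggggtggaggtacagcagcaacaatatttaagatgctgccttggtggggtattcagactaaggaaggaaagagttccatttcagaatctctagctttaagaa
The motif was found 2 times in the Thbs4 window, 1 time in that of Fmod, 3 times in that of Angptl7 and 0 times in that of Tnmd. Of the 10 members 7 had a promoter in the RefSeq table, with 9 windows since Erg had 3 starts, and 6 of these 9 held the motif, against 72.3% of all 32851 promoters of this length. A match is a description of letters and not a binding site, and its lack says only that these letters are not in this window.

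Cells were grouped by marker genes fixed for each class, with the members themselves left out of the genes used for clustering. The class with the members was the bone and cartilage fibroblast-like class, which held 2541 cells, 1134 in Veh and 1407 in Doxo. It was made of a cluster of 2443 cells, named from Nt5e, Anxa8, Dcn and Crip1, and a cluster of 98 cells, named from Fn1, Sema3c and Crip1, and none of its 8 markers was among the 10 leading genes of either cluster. The larger cluster was led by Lgr6 and by 5 members, Cilp, Cilp2, Clu, Angptl7 and Erg. The other classes were arteriolar and endosteal fibroblast-like (431 and 256 cells), CAR-like (CXCL12-abundant reticular, the stromal cells of the marrow; 371 and 429), osteoblast-like (205 and 126), chondrocyte-like (245 and 202) and endothelial-like cells, of which 102 in Veh and 68 in Doxo remained after the depletion of CD31. In the bone and cartilage fibroblast-like cells the 8 endothelial markers summed to 17.7 CPM (UMIs of a gene per 1000000 UMIs of the group) in Veh and 12.6 in Doxo, with 8 of 8 detected. The 5 erythroid markers summed to 247 CPM in Veh, with 5 detected, and to 2.11 CPM in Doxo, with 4 detected and Alas2 at 0. The part of erythroid RNA in the differences between the libraries was not tested.

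Of the 10 members, 9 had their highest level in the bone and cartilage fibroblast-like cells in both libraries, and the exception was Erg. This class held 45.6% of all cells in Veh and 56.6% in Doxo, and between 72.6% (Fmod) and 97.1% (Prg4) of the UMIs of a member in Veh, and between 78.1% (Fmod) and 97.9% (Prg4) in Doxo. In the plot of the levels by class, the arteriolar and endosteal fibroblast-like cells came closest to this class for the tendon genes Fmod, Thbs4, Tnmd and Scx. With classes set by the share of marker UMIs in each cell and no clusters, 6 members were highest in this class in both libraries, and Prg4, Erg, Thbs4 and Tnmd were not. With 20 principal components 8 members were, and Erg and Tnmd were not. The place of Tnmd rested on few cells: 98 cells, described below as subcluster 5, held 71.7% of its class UMIs in Veh and 53.0% in Doxo.

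**Figure D1:**
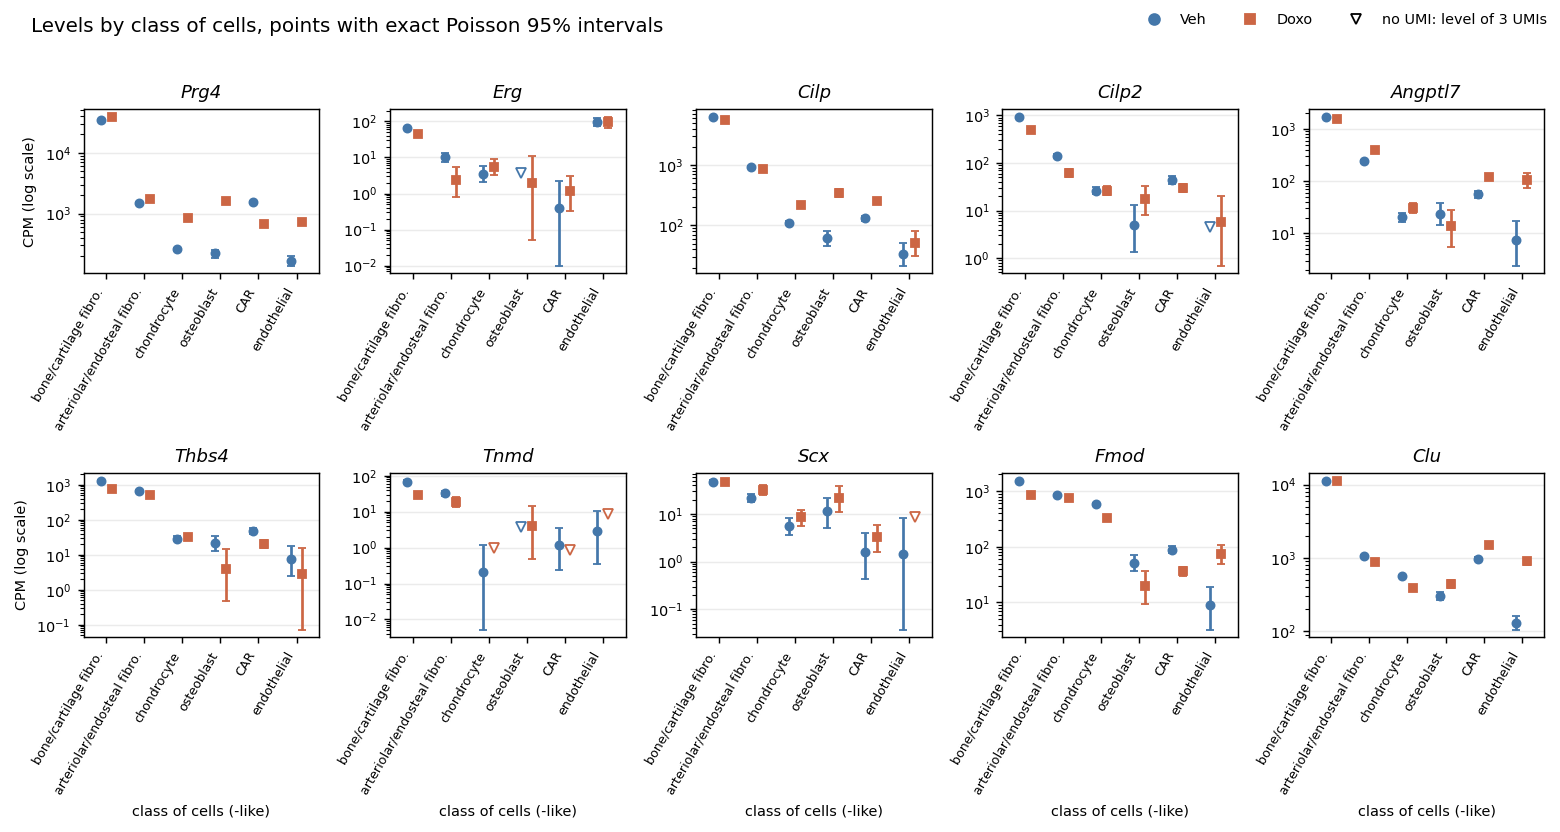
Level of each member (CPM, log scale) in the 6 classes of cells, with Veh and Doxo as separate points and 95% Poisson intervals that cover counting error only. 9 of the 10 members were highest in the bone and cartilage fibroblast-like cells in both libraries, and Erg was highest in the endothelial-like cells.

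Prg4 (chr1:150449412-150466165, minus strand) stood at 34626 CPM in Veh and 39083 CPM in Doxo in the bone and cartilage fibroblast-like cells, where 97.0% and 97.2% of the cells had at least 1 UMI. The next class was the CAR-like cells in Veh, at 1558 CPM, and in Doxo, at 1766 CPM, the arteriolar and endosteal class. In Veh 1 cell held 81.3% of the CAR-like Prg4 UMIs, and without it these cells were at 293 CPM, below the 1276 CPM of the arteriolar and endosteal class without its own top cell. So abundant a transcript was also found in cells that should lack it: with each cell thinned to 2000 UMIs, 27.4% of the endothelial-like cells in Veh and 37.7% in Doxo held a Prg4 UMI, against 91.6% and 93.2% of the fibroblast-like class, with median depths before thinning of 6309.5 and 4650.5 UMIs in the endothelial-like cells and 9796.5 and 7421 in the fibroblast-like class. Those shares are the background against which Prg4 in other classes has to be read. The Prg4 level of the endothelial-like cells was 170 CPM in Veh and 735 CPM in Doxo, where 1 cell held 58.2% of the UMIs.

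Erg (chr16:95359169-95586593, minus strand) was at 65.2 CPM (95% interval 60.7 to 70.0) in Veh and 45.0 CPM (41.1 to 49.0) in Doxo in the bone and cartilage fibroblast-like cells. The endothelial-like cells were higher, at 97.3 CPM (75.3 to 123.8) and 97.7 CPM (67.6 to 136.5). Because the endothelial markers were close to 0 in the fibroblast-like class, its Erg was measured in cells without an endothelial profile, and the class held 85.7% of all Erg UMIs in Veh and 89.4% in Doxo. In the osteoblast-like cells Erg had 0 UMIs in Veh and 1 in Doxo.

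Clu (chr14:65968483-65981547, plus strand) was at 11328 CPM in Veh and 11242 CPM in Doxo in the bone and cartilage fibroblast-like cells. It was the member found most often in the marrow stroma, where after thinning 74.0% of the CAR-like cells in Veh and 76.6% in Doxo held a UMI, at 978 and 1518 CPM. The same share in the endothelial-like cells was 20.0% and 26.2%, so Clu in CAR-like cells lay above that background.

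Cilp (chr9:65265180-65280605, plus strand) was at 6295 CPM in Veh and 5516 CPM in Doxo in this class, and its next class, the arteriolar and endosteal fibroblast-like cells, was at 944 and 872 CPM. Its paralog Cilp2 (chr8:69880369-69887687, minus strand) was at 932 and 507 CPM and had its next level, 141 and 62.3 CPM, in the same class. Angptl7 (chr4:148495183-148500460, minus strand) was at 1712 and 1528 CPM, against 239 and 402 CPM in the arteriolar and endosteal fibroblast-like cells. For all 3 genes the class with the second highest level was again a fibroblast-like one.

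The tendon genes were shared more widely between the fibroblast-like classes. Thbs4 (chr13:92751590-92794818, minus strand) was at 1307 CPM in Veh and 781 CPM in Doxo in the class and, in the arteriolar and endosteal fibroblast-like cells, at 680 and 495 CPM. Fmod (chr1:134037254-134048277, plus strand) was at 1532 and 862 CPM, with 860 and 754 CPM in the arteriolar and endosteal fibroblast-like cells. It was also found in chondrocyte-like cells, at 578 and 333 CPM, and after thinning 56.1% of them in Veh and 40.2% in Doxo held a UMI, against 0% and 4.92% of the endothelial-like cells. Tnmd (chrX:133850980-133865577, plus strand) was at 68.9 and 29.0 CPM, and Scx (chr15:76457452-76459458, plus strand) at 46.8 and 46.1 CPM. In the arteriolar and endosteal fibroblast-like cells Tnmd was at 32.8 and 18.7 CPM, and Scx was at 21.8 and 32.1 CPM. Outside the fibroblast-like classes Scx was highest in the osteoblast-like cells, with 9 and 11 UMIs. Tnmd was close to 0 there: the chondrocyte-like cells held 1 Tnmd UMI in Veh and 0 in Doxo, which allows a level of up to 0.977 CPM.

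Within the bone and cartilage fibroblast-like class the members did not mark 1 kind of cell. The class was clustered again at a resolution of 0.2, again without the members, into 5 subclusters, which are called by their number and leading genes. Subcluster 1 (563 cells in Veh and 657 in Doxo) was led by Clec3b, Angptl7, Npy and Fbln2. The naming rule gave it the name of the arteriolar and endosteal class, from Apod, Clec3b, Col14a1, Cd34 and Ly6a. The 8 markers of that class summed to 1104 CPM in Veh and 632 CPM in Doxo in subcluster 1. They summed to 856 and 1028 CPM in subcluster 4 and to 1424 and 1574 CPM in subcluster 5. The whole class was at 651 and 399 CPM, and subclusters 2 and 3 lay below it. Subcluster 2 (360 and 532) was led by Msmp, Mia, Cnmd and Ibsp and also carried the cartilage collagens Col2a1, Col9a1 and Col9a2. The naming rule, which here compares a subcluster with the other cells of the class, gave it the name of the chondrocyte class. That name came from 5 of the 8 markers, Pth1r, Col2a1, Col9a1, Col9a2 and Hapln1. The 8 chondrocyte markers summed to 4443 CPM in Veh and 4544 CPM in Doxo in subcluster 2. They summed to 4173 and 5477 CPM in subcluster 3, against 2284 and 2834 CPM in the whole class. The 8 osteoblast markers summed to 14834 and 11233 CPM in subcluster 2, against 7234 and 6158 CPM in the whole class. Subcluster 3 (110 and 120) was led by H2-Ab1, Serpina1e and Col10a1, subcluster 4 (44 and 57) by Gpr1, Tmem196 and Pla1a, and subcluster 5 (57 and 41) by Shisal2b, Mfap4, Postn and Ptx4. The 6 pericyte and smooth muscle markers summed to 598 CPM in Veh and 454 CPM in Doxo in subcluster 4, with 3 detected and Myh11, Notch3 and Mcam at 0, and to 204 and 225 CPM in subcluster 5, against 66.1 and 47.3 CPM in the class. The part of these other markers in the levels of the members was not tested. Of the 10 members, 9 were highest in the same subcluster in both libraries and 7 of them by at least 2-fold over the next, as the plot of the levels by subcluster shows. The exception was Erg, highest in subcluster 3 in Veh and in subcluster 2 in Doxo with intervals that overlapped.

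**Figure D2:**
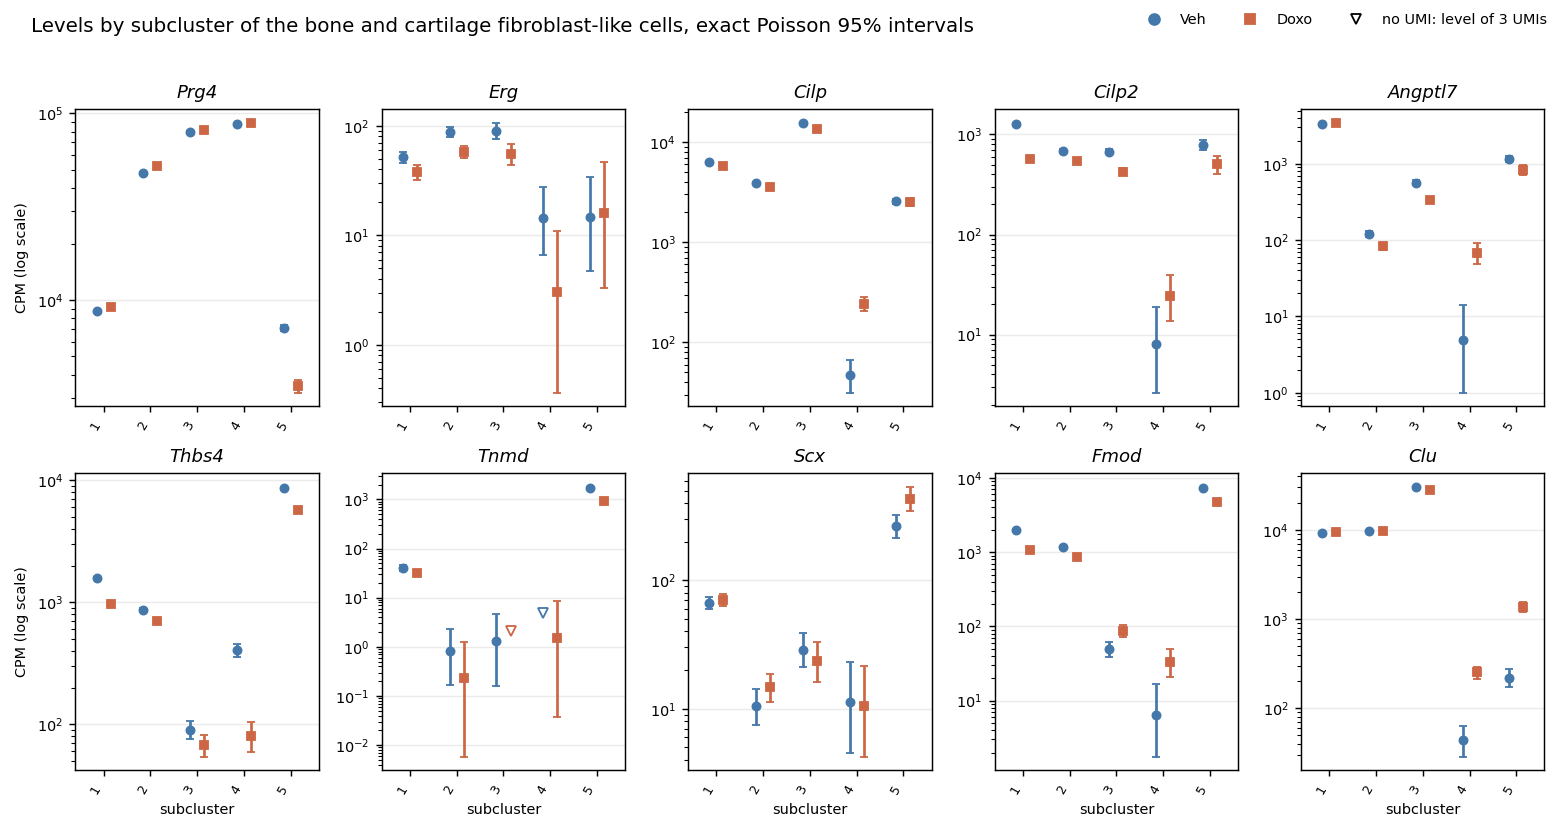
Level of each member (CPM, log scale) in the 5 subclusters of bone and cartilage fibroblast-like cells, Veh and Doxo as separate points with 95% Poisson intervals for counting error. The tendon genes Thbs4, Tnmd, Scx and Fmod were highest in subcluster 5, Angptl7 and Cilp2 in subcluster 1, Cilp and Clu in subcluster 3, and Prg4 in subcluster 4.

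Lubricin was graded across the class. Prg4 was at 8730 CPM in Veh and 9151 CPM in Doxo in subcluster 1, at 48199 and 52469 CPM in subcluster 2, at 79755 and 81242 CPM in subcluster 3 and at 87777 and 88535 CPM in subcluster 4. After thinning to 2000 UMIs, the median cell of subcluster 1 held 8 Prg4 UMIs in Veh and 11 in Doxo, that of subcluster 3 held 70 and 94, and that of subcluster 4 held 172.5 and 129.5. Subcluster 2 was mixed: its median cell held 14 and 20 Prg4 UMIs, but 1 cell in 10 held at least 315 in Veh and 306.6 in Doxo. In subcluster 5 the median was 2 UMIs in both libraries, and in the endothelial-like cells it was 0. The subcluster 5 sum of 7100 CPM in Veh and 3459 CPM in Doxo came mainly from 1 cell per library, which held 85.4% and 61.8% of its Prg4 UMIs. Without these cells the level was 1130 and 1460 CPM.

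**Figure D3:**
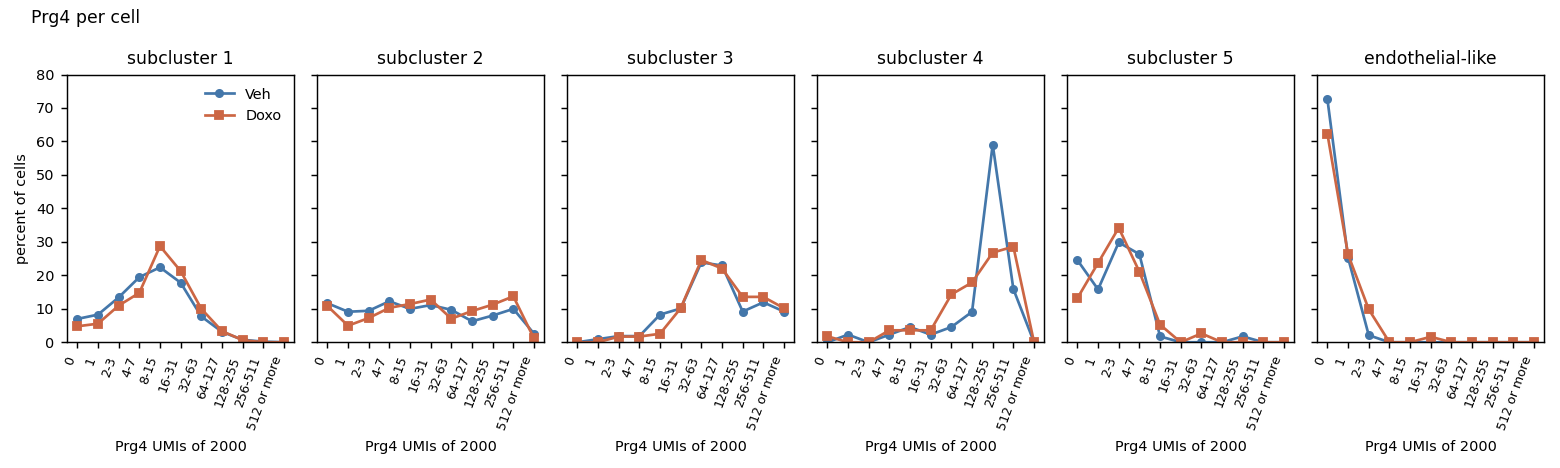
Distribution of Prg4 per cell (UMIs among 2000 UMIs, in doubling bins) in the subclusters and in the endothelial-like cells, as percent of the cells of each group in Veh and in Doxo. Subclusters 3 and 4 lie to the right of subclusters 1 and 5, and subcluster 2 spreads over nearly the whole range.

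Subcluster 4 held Prg4 with low levels of most other members. Its Clu was at 43.6 CPM in Veh and 253 CPM in Doxo and its Erg was at 14.5 and 3.0 CPM, from 9 and 2 UMIs. Its Cilp was at 46.8 and 241 CPM, and 1 cell held 75.9% of those UMIs in Veh and 51.3% in Doxo. Thbs4 was the exception in Veh, at 405 CPM there and 79.7 CPM in Doxo, and without the top cell of each library it was at 180 and 43.8 CPM. The median cell of subcluster 4 held 1 of the 10 members in each library after thinning, against 5 and 4 members in the whole class and 1 and 1 in endothelial-like cells.

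Subcluster 3 held Prg4 together with the highest Clu and Cilp. Clu was at 30398 CPM in Veh and 27966 CPM in Doxo there, against 9626 and 9796 CPM in subcluster 2, and Cilp was at 15445 and 13487 CPM, against 6319 and 5793 CPM in subcluster 1. With 9.70% of the class cells in Veh and 8.53% in Doxo, subcluster 3 held 34.9% and 30.5% of the Clu UMIs of the class. Of the tendon genes, Thbs4 was at 89.9 and 67.2 CPM and Fmod at 49.2 and 87.3 CPM. Tnmd had 2 UMIs in Veh and 0 in Doxo. Scx, at 28.9 and 23.6 CPM, lay above subcluster 2, at 10.5 and 14.7 CPM. Erg was at 90.6 CPM (76.1 to 107.0) and 55.1 CPM (43.5 to 68.9) in subcluster 3, with intervals that overlapped those of subcluster 2 at 87.6 CPM (78.4 to 97.7) and 57.5 CPM (50.6 to 65.1).

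Angptl7 marked subcluster 1, which held 91.5% of its UMIs in the class in Veh and 94.0% in Doxo. Its level there was 3329 CPM in Veh and 3417 CPM in Doxo, against 120 and 83.0 CPM in subcluster 2, 568 and 340 CPM in subcluster 3 and 1156 and 835 CPM in subcluster 5. Cilp2 was also highest in subcluster 1, at 1283 and 566 CPM, but by little in Doxo, where subcluster 2 was at 543 CPM. The step between subclusters was thus far larger for Angptl7 than for Cilp2.

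The 4 tendon genes were highest together in subcluster 5. Tnmd was at 1686 CPM (1551 to 1829) in Veh and 937 CPM (803 to 1087) in Doxo, found in 96.5% and 85.4% of the cells, and the next subcluster, number 1, was at 40.6 and 31.9 CPM. Subcluster 5 made up 5.03% of the class cells in Veh and 2.91% in Doxo and held 71.7% and 53.0% of its Tnmd UMIs. Thbs4 was at 8585 and 5735 CPM and Fmod at 7365 and 4712 CPM, each found in at least 97.6% of the cells. Scx was at 265 CPM (213 to 325) in Veh and 434 CPM (344 to 539) in Doxo, against 66.6 and 71.0 CPM in subcluster 1. The transcription factor thus stood at its highest level beside the 3 matrix and membrane genes of tendon. Clu, in contrast, was at 218 and 1371 CPM, of which 1 cell held 50.7% and 92.2% of the UMIs, and was at 117 and 118 CPM without those cells.

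The subclusters were drawn by a resolution, so the members were also compared cell by cell. All 45 pairs of members were counted in the class after thinning each cell to 2000 UMIs, which left 1106 of 1134 cells in Veh and 1367 of 1407 in Doxo, and a pair was called together where the log2 odds ratio of being found in the same cell was at least 1 in both libraries, and apart where it was at most -1 in both. Of the 45 pairs 16 were together, 4 apart and 25 neither. Over 16857721 pairs of genes found in 3% to 97% of the cells, 0.521% were together and 0.482% apart. The cells of a class share their library and differ in depth, and the odds ratios are given as a description.

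**Figure D4:**
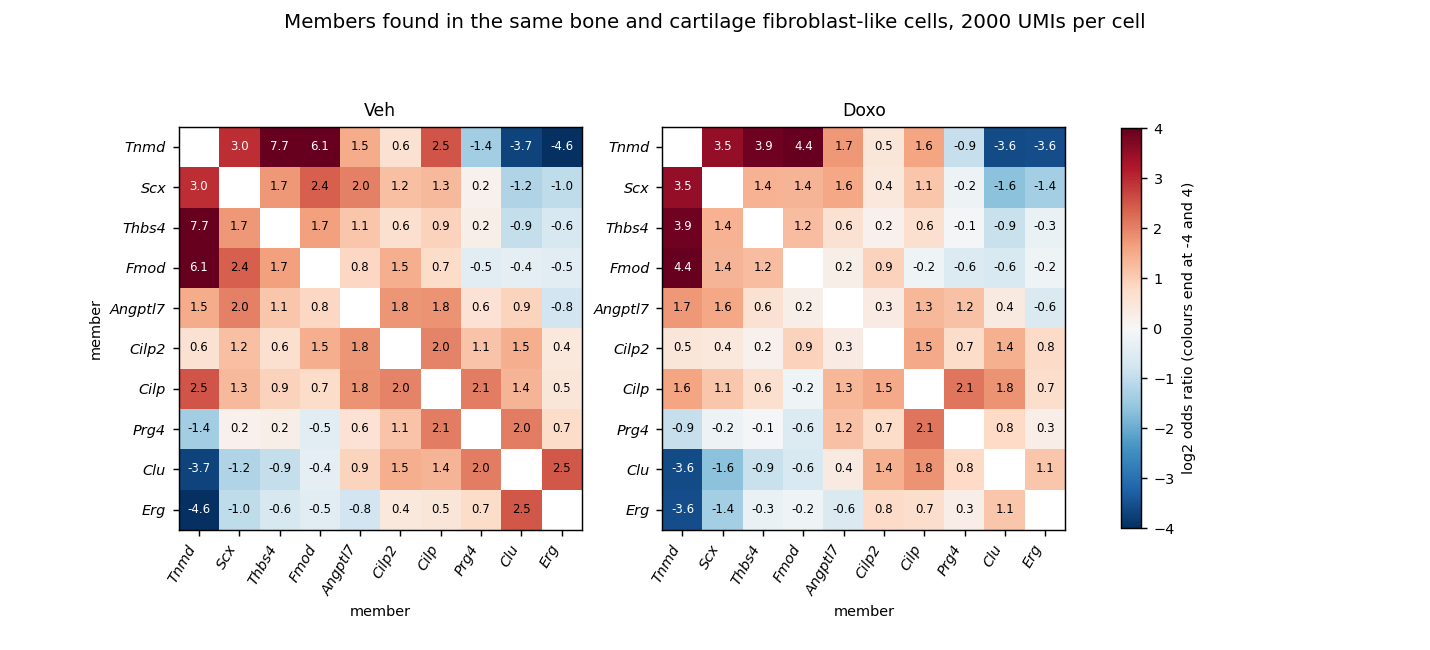
Log2 odds ratio of finding both members of a pair in the same cell, for the 45 pairs in bone and cartilage fibroblast-like cells thinned to 2000 UMIs, Veh and Doxo separately. A positive value means that 1 gene was found more often in cells with the other gene than in cells without it. The pairs of Tnmd with Thbs4 and Fmod stand at the positive end and those of Tnmd with Erg and Clu at the negative end.

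The tendon genes were found in the same cells. All 79 Tnmd cells in Veh also held Thbs4, against 42.6% of the cells without Tnmd, and in Doxo 49 of 54 did, against 37.5%. Fmod was found in 78 of the 79 Tnmd cells in Veh, against 42.5% of the cells without Tnmd, and in 50 of 54 in Doxo, against 34.2%. Scx was found in 28 of 79 and 24 of 54 Tnmd cells, against 6.62% and 6.47% of the cells without. Of the 6 pairs among these 4 genes all 6 were called together, with log2 odds ratios from 1.23 for Thbs4 with Fmod in Doxo to 7.74 for Thbs4 with Tnmd in Veh. Tnmd was found with Thbs4 and Fmod outside subcluster 5 too: in subcluster 1 alone, 27 of 27 Tnmd cells in Veh and 21 of 25 in Doxo held Thbs4, and 26 of 27 and 21 of 25 held Fmod. Without subcluster 5, Scx no longer met the rule with Thbs4 (1.42 in Veh and 0.79 in Doxo) or with Fmod (2.11 and 0.72).

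Erg parted from Tnmd and Scx and not from the other tendon genes: it was neither together with nor apart from Thbs4 (-0.63 in Veh and -0.28 in Doxo) and Fmod (-0.46 and -0.18). In Veh 0 of 79 Tnmd cells held an Erg UMI, which allows a share of up to 3.80%, against 13.0% of the cells without Tnmd. In Doxo it was 0 of 54, which allows up to 5.56%, against 9.67%. Erg was found in 6 of 96 Scx cells in Veh and in 4 of 109 in Doxo, against 12.7% and 9.78% of the cells without Scx. At this depth Erg was found in 12.1% and 9.29% of all thinned class cells, so each of these counts is small, and the Erg and Scx pair, at -1.02 in Veh and -1.35 in Doxo, lay just past the limit in Veh. Without subcluster 5 that pair was at -0.74 and -0.996, and the pair of Erg and Tnmd at -3.06 and -2.47.

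Clu parted from Tnmd and Scx but not from the other members. It was found in 26 of 79 Tnmd cells in Veh and 22 of 54 in Doxo, against 86.6% and 89.2% of the cells without Tnmd, and the log2 odds ratio was -3.70 and -3.57. The median Tnmd cell held 0 Clu UMIs of 2000 in both libraries, and the median cell without Tnmd held 13 and 14. Clu was found with Erg in 129 of 134 Erg cells in Veh and 119 of 127 in Doxo, against 80.9% and 86.6% of the cells without Erg. Fmod and Thbs4, which reach across subclusters 1, 2 and 5, were neither together with nor apart from Clu, at -0.37 and -0.61 for Fmod and -0.95 and -0.89 for Thbs4, the latter just short of the limit. Without subcluster 4, Fmod with Clu was -1.21 in Veh and -1.35 in Doxo, Thbs4 with Clu -1.76 and -1.69, and Erg with Clu 2.43 and 0.76. Without subcluster 5, Tnmd with Clu was -1.96 and -2.79 and Scx with Clu -0.40 and -0.78.

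By presence, though not by level, Cilp joined both sides, called together with 6 others: Prg4, Cilp2, Angptl7, Tnmd, Scx and Clu. It was found in 94.9% of the Tnmd cells in Veh and 88.9% in Doxo, against 74.8% and 71.4% of the cells without Tnmd, and in 79.6% and 75.8% of the Clu cells, against 60.2% and 47.1% of the cells without Clu. Without subcluster 5, Cilp was at 1.25 in Veh and 0.27 in Doxo with Tnmd and at 1.01 and 0.69 with Scx, and without subcluster 4 it was at 0.43 and 1.15 with Clu, all short of the rule. In level, the median Tnmd cell held 5 Cilp UMIs of 2000 in Veh and 3.5 in Doxo, against 8 and 6 without Tnmd. For Scx the medians were 6.5 and 6, against 8 and 6 without Scx. For Clu they were 9 and 7, against 1 and 0 without Clu. Angptl7 was together with Cilp, Tnmd and Scx: 68 of 96 Scx cells in Veh and 64 of 109 in Doxo held it, against 37.0% and 32.6% of the cells without Scx. Prg4 was found in nearly every cell, so its level says more than its presence. The median cell with Angptl7 held 8 Prg4 UMIs of 2000 in Veh and 11 in Doxo, against 17 and 24 in cells without Angptl7, and the median cell with Tnmd held 3 and 3.5, against 13 and 16. The median Prg4 level was thus lower in cells with Angptl7 or Tnmd than in cells without them, in both libraries.

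The genes whose level went most closely with that of a member across the cells of this class are given as a description, by the mean over both libraries of Pearson's r on log values of single cells, among 8679 genes. The cells share library and depth, and no function is read from the likeness. For Tnmd they were Marcks (0.56), Itgbl1 (0.53) and Cpxm2 (0.53). Itgbl1 was among the first 3 for all 4 tendon genes: with Serpinf1 (0.43) and Apod (0.38) for Thbs4 (Itgbl1 0.43), with Col1a2 (0.40) and Serpinf1 (0.37) for Fmod (Itgbl1 0.39), and with Fndc1 (0.33) and Ssc5d (0.32) for Scx (Itgbl1 0.34). Cytl1 was among the first 3 for Prg4 (0.48), with Hbegf (0.38) and S100b (0.38), for Clu (0.43), with Scara3 (0.52) and Ecrg4 (0.51), and for Erg (0.26), with Hapln1 (0.31) and Meltf (0.30). The first 3 genes of the tendon members and those of Prg4, Clu and Erg had no gene in common. Lists of 3 out of 8679 genes seldom overlap, so nothing is read from this. For Angptl7 they were Igfbp6 (0.54), Dcn (0.51) and Lox (0.51), for Cilp Gas1 (0.41), Nt5e (0.35) and Fibin (0.35), and for Cilp2 Prelp (0.45), Sod3 (0.37) and Igfbp7 (0.37).

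Other genes of tendon and of the joint surface were read from 2 lists of 10 genes. Among the subclusters, 7 of 10 genes of the tendon and ligament list were highest in subcluster 5 in both libraries. These genes, unlike the members, could also shape the clusters, and the share of all genes highest in a given subcluster was not counted. The 4 with the highest level in the class were Comp, an extracellular matrix protein of cartilage and tendon, at 10833 CPM in Veh and 7733 CPM in Doxo, Fibin at 645 and 606 CPM, the collagen Col12a1 at 190 and 123 CPM and Thbs2 at 155 and 100.4 CPM. Of these, Col12a1 and Thbs2 were highest in subcluster 5, and Comp and Fibin were not. Comp was at 2215 and 1804 CPM there, against 12133 and 9349 CPM in subcluster 1, and Fibin was highest in subcluster 3. Other classes held these genes too. Col12a1 was at 823 and 486 CPM in chondrocyte-like cells, against 1275 and 867 CPM in subcluster 5. Thbs2 was at 327 and 308 CPM in arteriolar and endosteal fibroblast-like cells, against 661 and 498 CPM. The listed gene Tnc was at 756 and 817 CPM in CAR-like cells, above subcluster 5 at 195 and 91.0 CPM. Of the list of joint surface and synovial lining genes, 9 of 10 had at least 10 UMIs in the class, and 4 of those 9 were highest in subcluster 4 in both libraries. The leading 4 of this list were the cytokine-like gene Cytl1 at 12758 and 16038 CPM, Abi3bp at 1646 and 1070 CPM, Vit at 291 and 276 CPM and the transcription factor Creb5 at 251 and 341 CPM. Of these, only Creb5 was highest in subcluster 4. Cytl1 was at 48.5 and 259 CPM there, against 30435 and 31754 CPM in subcluster 3. Abi3bp was highest in subcluster 5 and Vit in subcluster 2.

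Between the conditions the members were compared by the log2 ratio of their CPM, Doxo over Veh, in the bone and cartilage fibroblast-like cells. Tnmd, at 68.9 CPM in Veh and 29.0 CPM in Doxo, had the ratio furthest from 0, -1.25 (95% interval -1.44 to -1.06). It was the only member past an absolute log2 ratio of 1, 1 of 10 members, while 7.35% of the 14522 genes with at least 10 UMIs in this class were past it. With 20 principal components the ratio of Tnmd was -0.78 and with classes set by marker shares -0.87, which leaves 0 members past the limit. Of the 10 members, 9 had a ratio below 0 and for 7 the interval lay below 0, as it did for 20.2% of all these genes. Such intervals narrow as UMIs rise, and the members had from 548 (Scx) to 405785 (Prg4) UMIs in Veh. The shares of 7.35% and 20.2% count every gene with at least 10 UMIs, so they are not matched to the members in UMIs. The median of the members was -0.36 and that of all genes -0.08, and the share of all genes with a ratio below 0 was not counted. These are 2 libraries, and a difference between them cannot be told apart from a difference between their mice or preparations.

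**Figure D5:**
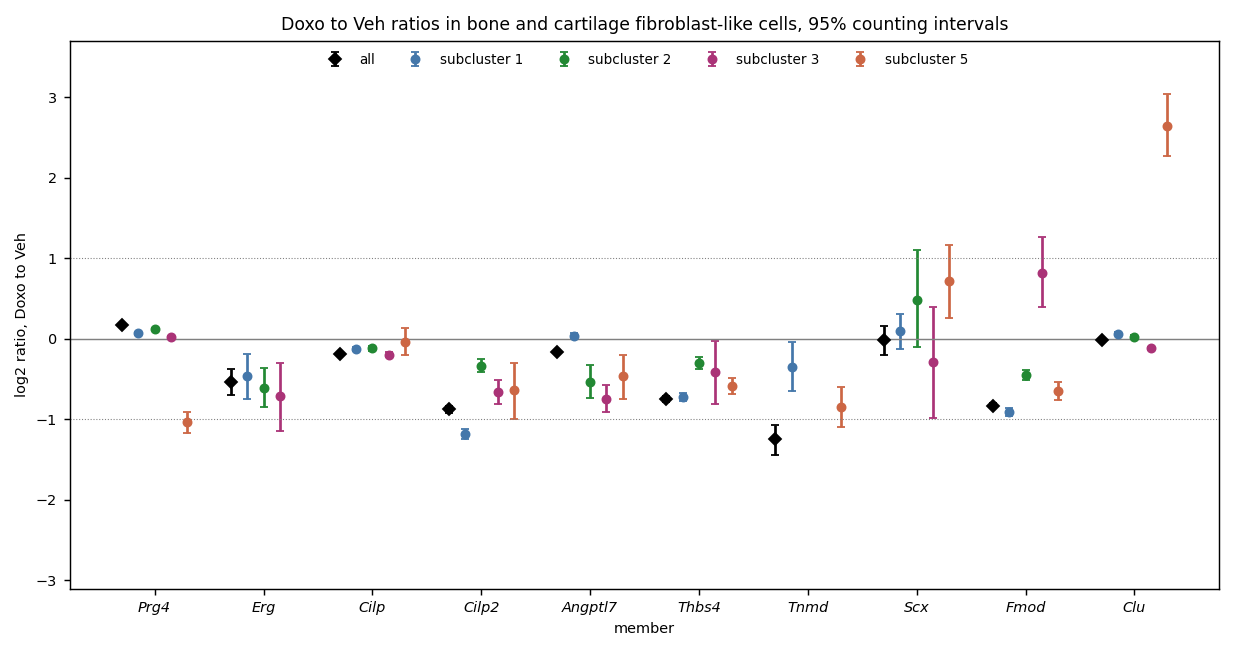
Log2 ratio of Doxo to Veh (CPM) of each member in the whole bone and cartilage fibroblast-like class and in its subclusters other than subcluster 4. Points need at least 10 UMIs over both libraries, with 95% intervals for counting error and lines at 0 and at the limits of 1. In the class, Tnmd, Cilp2, Fmod, Thbs4 and Erg lie below 0, Scx and Clu lie at 0, and Prg4 lies slightly above 0.

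The other tendon genes of the list were lower in Doxo as well, apart from Scx. Fmod had a log2 ratio of -0.83 (-0.86 to -0.79) and Thbs4 of -0.74 (-0.78 to -0.70). The factor Scx, at 46.8 and 46.1 CPM, had a ratio of -0.02 (-0.20 to 0.15), while the ratios of the 3 genes found in the same cells lay below 0. For Tnmd, part of the class value went with the number of cells: subcluster 5 was 57 cells in Veh and 41 in Doxo, its own Tnmd ratio was -0.84 (-1.10 to -0.60), that of subcluster 1 was -0.35 (-0.65 to -0.04), and the class without subcluster 5 gave -0.54. In subcluster 5 Scx was higher in Doxo, at 0.71 (0.26 to 1.16), beside Thbs4 at -0.58 and Fmod at -0.64.

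Of the joint surface genes, Erg had a log2 ratio of -0.54 (-0.70 to -0.37), and it was below 0 in subclusters 1, 2 and 3 alike, at -0.46, -0.61 and -0.71. Prg4 had a ratio of 0.17 (0.17 to 0.18) and Clu of -0.01 (-0.02 to 0.00), so that both genes differed little between the libraries. Cilp, at -0.19 (-0.21 to -0.18), and Angptl7, at -0.16 (-0.19 to -0.13), had small ratios too, and that of Angptl7 was 0.00058 with every cell weighing the same. The paralog Cilp2 differed from Cilp, at -0.88 (-0.92 to -0.83).

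The ratios within the subclusters were read in the same way. In subcluster 1 it was 1 of 10 members, Cilp2 at -1.18 (-1.25 to -1.12), with 7.38% of all genes past it. In subcluster 2 it was 0 of 9 members with at least 10 UMIs, against 7.32%, and in subcluster 3 0 of 9, against 7.39%. In subcluster 5 it was 2 of 9, against 15.7%, namely Prg4 at -1.04 and Clu at 2.64, and both rested on 1 cell: without the cell that held most of their UMIs in each library they were 0.37 (0.13 to 0.61) and 0.03 (-0.85 to 0.83). In subcluster 4 it was 7 of 9, against 11.1%, and 4 of these, Erg, Cilp2, Angptl7 and Fmod, rested on fewer than 10 UMIs in Veh. The other 3 were Thbs4 at -2.34 (-2.80 to -1.91) with 251 UMIs in Veh and 53 in Doxo, Cilp at 2.34 (1.78 to 2.98) with 29 and 160 UMIs, and Clu at 2.51 (1.94 to 3.18) with 27 and 168 UMIs. They stayed past the limit without the top cell of each library, at -2.02, 3.29 (2.27 to 4.74) and 2.56. For Cilp that cell held 22 of the 29 UMIs in Veh. The gene this subcluster did hold, Prg4, was at 0.01 (-0.00 to 0.03). In the endothelial-like cells, read above as background, Clu was at 131 and 896 CPM and Cilp at 33.9 and 51.7 CPM. Angptl7 was at 7.4 and 106 CPM there and Fmod at 8.8 and 74.7 CPM. In Doxo 1 cell held 78.4% and 76.9% of those UMIs. Thbs4 had 5 and 1 UMIs there. The part of this background in the ratios of subcluster 4 was not tested.

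The other listed genes of tendon and joint surface were read against the same shares: 7.35% past an absolute ratio of 1 and 20.2% with an interval below 0. Of the same 14522 genes, 758 were past -1 and 1381 had an interval above 0, and their median was -0.08. Of the 10 tendon and ligament genes, 9 had a log2 ratio below 0 in the class, 8 with an interval below 0, and 2 were past -1, with a median of -0.55. Comp was at -0.49 and Fibin at -0.09, and Col12a1 and Thbs2 were each at -0.62. Of the 9 joint surface and synovial lining genes, 6 had a ratio below 0, 5 with an interval below 0 and 2 with an interval above 0, and 0 were past the limit, with a median of -0.08. Creb5 was at 0.44, Cytl1 at 0.33 and Abi3bp at -0.62.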

How the data were processed

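Cells of 1 Veh and 1 Doxo library were grouped by the treatment in their labels. The values deposited by the authors are on a log2 scale, 1 value per gene and cell: each cell was scaled to 1000000 UMIs and logged, then scaled to the same sum and logged once more, to base 2. These 2 rounds were read from the values and are not described in the methods. Per the submitters' processing notes the reads went through Cell Ranger and Partek on GRCm38 (mm10), with versions not given in the sources used here. The steps were inverted per cell, which gave whole UMIs, within 0.05, for 99.9% of the nonzero values up to 50 in each library. The libraries held 24859695 UMIs (Veh) and 20792012 UMIs (Doxo), with at least 1507 and 1506 UMIs per cell, so that a gene with few UMIs has a wide interval.

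The filters of the methods were applied (genes found in at least 3 cells; per cell 200 to 10000 genes, 100 to 100000 UMIs, mitochondrial share of no more than 10%). Cells were merged without integration and clustered in Seurat 5.3.0 (R 4.3.3) with 2000 variable genes, the 10 members left out of them, 35 principal components and a resolution of 0.1. Endothelial-like and immune clusters were set aside, the rest was clustered again, and the fibroblast-like class was clustered alone at 0.2. Names went to the class with most markers (3 or more) that occurred in at least 10% of the cluster and exceeded all other cells by 1 on the log2 scale, unless its 10 leading genes held more markers of another class. Scrublet (scanpy 1.11.5, expected rate 5%) marked 9 Veh cells (0.362%) and 3 Doxo cells (0.121%), too few to show that it worked, so doublets were kept.

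UMIs were summed per class and library and given as CPM. Intervals are exact Poisson for CPM, exact binomial for shares and exact conditional binomial for ratios, which were themselves taken after adding 0.5 UMI to both sums, and a sum of 0 has the limit that 3 counts give. Shares were compared with cells thinned to 2000 UMIs. Ratios past an absolute value of 1 were counted among genes with at least 10 UMIs over both libraries. The calculations were tested on simulated counts. The genes named were all members, up to 4 of each list with the highest level in the class, and the 3 genes most like each member, among genes found in at least 5% of the class cells in each library. Tnc of the tendon list was named for its level in CAR-like cells. Members and lists were chosen with earlier results of these data known. Coordinates are those of GENCODE M21 on GRCm38, and promoters are those of RefSeq. Alternatives were other variable genes, components, resolutions, thresholds and pseudocounts, and classes set by marker shares. The software was matplotlib 3.10.9 for plots, and pandas 2.3.3, scipy 1.17.1 and numpy 2.4.6 under Python 3.11.15 for values.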

Additional observations from a re-analysis of the deposited data

Results flagged for a closer look

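Cilp2 had a log2 ratio of Doxo to Veh of 1.48 (95% counting interval 0.06 to 3.38) in subcluster 4 and of -1.18 (-1.25 to -1.12) in subcluster 1, and was singled out because the direction differed between these subclusters of 1 class. The value of subcluster 4 rests on 5 UMIs in Veh and 16 in Doxo, that of subcluster 1 on 7072 and 2710. With 1 library per condition the difference between the subclusters was not tested.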

How the results depend on the processing

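The number of members past an absolute log2 ratio of 1 was 0 instead of 1 with 20 principal components (Tnmd at -0.78), with classes set by marker shares without clusters (-0.87) and without subcluster 5 (-0.54). With 20 components the cells led by Chodl, Ptx4 and Tnmd formed a cluster of 104 cells that got no name and left the class. In the main run the clustering of all cells also held an unnamed cluster of 101 cells, led by Shisal2b, Ptx4 and Chodl. The second clustering of the main run, which set the classes, had no such cluster. The share of all genes past that limit was 22.8% with no minimum of UMIs and 2.3% with at least 50. The pairs found apart were 2 instead of 4 with at least 2 UMIs in cells not thinned, with both fibroblast-like classes together and without subcluster 5. The alternatives without subclusters 4 and 5 were chosen after seeing the data. The other 35 alternative values of the main counts stayed within 1.5 times, and the ratio of Tnmd, the only member past 1 in the class, stayed below 0. Of the single alternative values of levels, ratios and called pairs, 304 stayed within their counting interval or pair limit. Another 105 levels or ratios moved out of their interval, and 31 pair values fell short of the limit. Over 10 alternatives the ratio of Tnmd ran from -1.69 to -0.54, that of Thbs4 from -0.94 to -0.64, that of Fmod from -0.95 to -0.73, that of Cilp2 from -0.94 to -0.81 and that of Erg from -0.59 to -0.46. Those of Scx (-0.11 to 0.14) and Clu (-0.05 to 0.07) crossed 0, and that of Angptl7 ran from -0.17 to 0.00058, the latter with every cell weighing the same. With 20 components 8 members were highest in the fibroblast-like class, and with classes set by marker shares 6 were, the exceptions there being Prg4, Erg, Thbs4 and Tnmd. No paired analysis was possible because each condition has 1 library.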

Other observations

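In the arteriolar and endosteal fibroblast-like cells all 10 members were at lower levels than in the bone and cartilage class in both libraries. Angptl7 was at 239 CPM in Veh and 402 CPM in Doxo, a log2 ratio of 0.75, and was 0.71 (0.56 to 0.85) without the cell that held most of its UMIs in each library. Scx was at 21.8 and 32.1 CPM there, and Cilp2 at 141 and 62.3 CPM. Erg was found in 25 of 431 cells in Veh and in 4 of 256 in Doxo. Whether these ratios differ from those of the bone and cartilage class was not tested.

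At a resolution of 0.4 the bone and cartilage fibroblast-like class fell into 7 clusters, and all 10 members were highest in the same cluster in both libraries. Subcluster 2 then split into cells with much and cells with little lubricin. Of its cells, 684 entered a cluster with Prg4 at 65409 CPM in Veh and 63300 CPM in Doxo. Another 150 joined 506 cells of subcluster 1 in a cluster at 7461 and 7893 CPM, and 55 formed a cluster at 6362 and 327 CPM. The naming rule, which here compares a cluster with the other cells of the class, gave each of these clusters a different name. The cluster of the 684 cells was named chondrocyte. The cluster shared with subcluster 1 was named osteoblast, from Col1a1, Alpl and Ibsp. The cluster of 55 cells was named CAR, from 7 of the 8 markers. The part of these markers in the split was not tested.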
